A study of Mus musculus with 6 samples.

Results

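Axon guidance ligands and receptors were compared between mutant and control sciatic nerves of mice at postnatal day 2, an age at which the Schwann cells of the nerve begin to form myelin. Members were the genes whose symbol is that of a semaphorin of classes 3 to 7, a plexin, a neuropilin, an Eph receptor, an ephrin, a Slit, a Robo, a netrin or an Unc5 receptor. The search by symbol found 69 of the 18194 named genes on the array. Of these, 3 are not guidance ligands or receptors. Unc50 and Unc5cl were found because their symbols begin like those of the Unc5 receptors, and Plxna4os1 is a long noncoding RNA antisense to Plxna4. The other 66 genes fell into 9 families. A gene was tested when its log2 value was at least 4 on 3 or more of the 6 arrays, which held for 63 of the 69 symbols and for 62 of the 66 guidance genes.

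The tested nerves were double knockouts (dKO), labelled DhhCre+ HDAC1-2 dKO and peripheral hypomyelination. They lacked the histone deacetylase genes Hdac1 and Hdac2 in Schwann cells. DhhCre is Cre under the control of desert hedgehog sequences, which are active in the Schwann cell lineage. The control nerves were labelled DhhCre– with no disease, and the labels do not say which Hdac1 and Hdac2 alleles these carried. Both groups were of mixed strain, were the same age, and had the perineurium, the sheath around the nerve, taken off before RNA extraction. There were 3 samples per group, each hybridised to 1 Affymetrix mouse genome array. No label says whether a sample was 1 pup or a pool, and the p-values rest on the variation among these 6 samples, part of which may be technical. Values are log2 expression, SDs are over the 3 samples of a group, and a change is the dKO mean minus the control mean on the log2 scale with its standard error (SE). "Called" means an adjusted p under 0.05 in a limma fit across all 14550 genes tested.

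Guidance ligands steer growing axons and migrating cells by attraction or repulsion. Ephrins are bound to the cell surface and activate Eph receptor tyrosine kinases on neighbouring cells. Semaphorins are secreted or membrane-bound and signal through plexins, with neuropilins as co-receptors for most class 3 members. Netrins act through Dcc, neogenin and the Unc5 receptors, and Slits act through Robos. In peripheral nerve, these families are known from the sorting of Schwann cells and fibroblasts, from Schwann cell migration, and from the alignment of vessels with nerves.

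The labels were checked on the targeted genes. Hdac1 was 8.75, 8.96 and 8.85 in dKO nerves, against 10.48, 10.38 and 10.36 in control nerves. Hdac2 was 11.22, 10.81 and 11.19 in dKO nerves, against 12.34, 12.33 and 12.33 in control nerves. Every dKO value lay under every control value, with a change of -1.55 for Hdac1 (SE 0.13, adjusted p = 0.000271). For Hdac2 the change was -1.26 (SE 0.15, adjusted p = 0.00103). Of the 3 Hdac2 probe sets above the limit, 1 was not called (0.13, adjusted p = 0.659 over all probe sets), and the average of the 3 changed by -0.71 (adjusted p = 0.00431). The RNA was that of a mixed tissue, so fewer cells of a type and less RNA per cell cannot be told apart in any value given here.

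Marker lists of the cell types in the nerve moved as follows, and their part in the changes of guidance genes was not tested. The counts stand beside 22.0% called of all 14550 genes tested. The shares called of macrophage markers (25%) and neuronal markers (27.3%) were near it. All 10 tested markers of myelinating Schwann cells were called lower, and the mean log2 value over that list was 7.64 to 9.22 on the dKO arrays and 11.36 to 11.61 on the control arrays. Of 10 markers of the Schwann lineage, 3 were called higher and 3 lower, a share of 60%. The list means, 9.05 to 9.34 in dKO and 9.05 to 9.25 in control, average over these opposite changes and do not show them. Of 9 endoneurial fibroblast markers 4 were called higher (10.87 to 11.12 in dKO, 10.03 to 10.63 in control), and of 9 pericyte and smooth muscle markers 4 (8.10 to 8.42 in dKO, 7.69 to 7.72 in control). Of 8 macrophage markers 2 were called higher (7.68 to 8.67 in dKO, 7.06 to 7.50 in control, with Itgam and Cd14 under the limit on all arrays). Of 12 endothelial markers 0 were called (7.06 to 7.46 in dKO, 6.64 to 7.06 in control). Of 6 perineurial markers 1 was called higher and 1 lower (8.08 to 8.29 in dKO, 7.43 to 7.98 in control). Of 11 neuronal markers 2 were called higher and 1 lower (6.96 to 7.05 in dKO, 6.62 to 6.81 in control, with Isl1 under the limit). Skeletal muscle markers were near the limit, at 4.59 to 4.71 in dKO and 4.48 to 4.91 in control, and 0 of 7 were called (Myog was under the limit on all arrays).

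Of the 63 tested symbols, 25 (39.7%) were called, 14 higher and 11 lower in dKO nerves. Over all 14550 genes tested, 22.0% were called, 12.6% higher and 9.38% lower. The balance of directions over all genes depended on the scaling: 1833 were called higher and 1365 lower, and with arrays centred on their median 1603 were called higher and 1640 lower. The members' counts of 14 and 11 were the same with centred arrays. Of the 63, 20 (31.7%) were called with a change of at least 2-fold, against 10.4% of all genes tested. On all 25, every dKO value lay on the same side of every control value. Such a separation was seen for 20 symbols in the higher and 11 in the lower direction, and for 40.9% of all genes tested. Efnb3, Sema3d, Sema4a, Sema4b, Sema6a and Plxnc1 were separated without being called, all with higher dKO values. The median change of the 63 was 0.17 and that of all genes was 0.01, and the median size of the change regardless of sign was 0.45 for the 63 and 0.28 for all genes. These counts cover the genes that passed the limit on low values. Epha3 passed it through the dKO arrays alone, so it had to differ. Just inside the limit lay Robo3, with values of 4.06, 3.75 and 3.79 in dKO and 4.09, 3.98 and 4.10 in control. Of the symbols left out, Plxna4os1 reached it on 1 array (3.47, 3.93 and 3.92 in dKO, 5.17, 3.81 and 3.90 in control). The guidance genes Epha8, Robo2, Sema3a and Unc5d stayed between 2.48 and 3.71 on all arrays and were not tested.

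**Figure D1:**
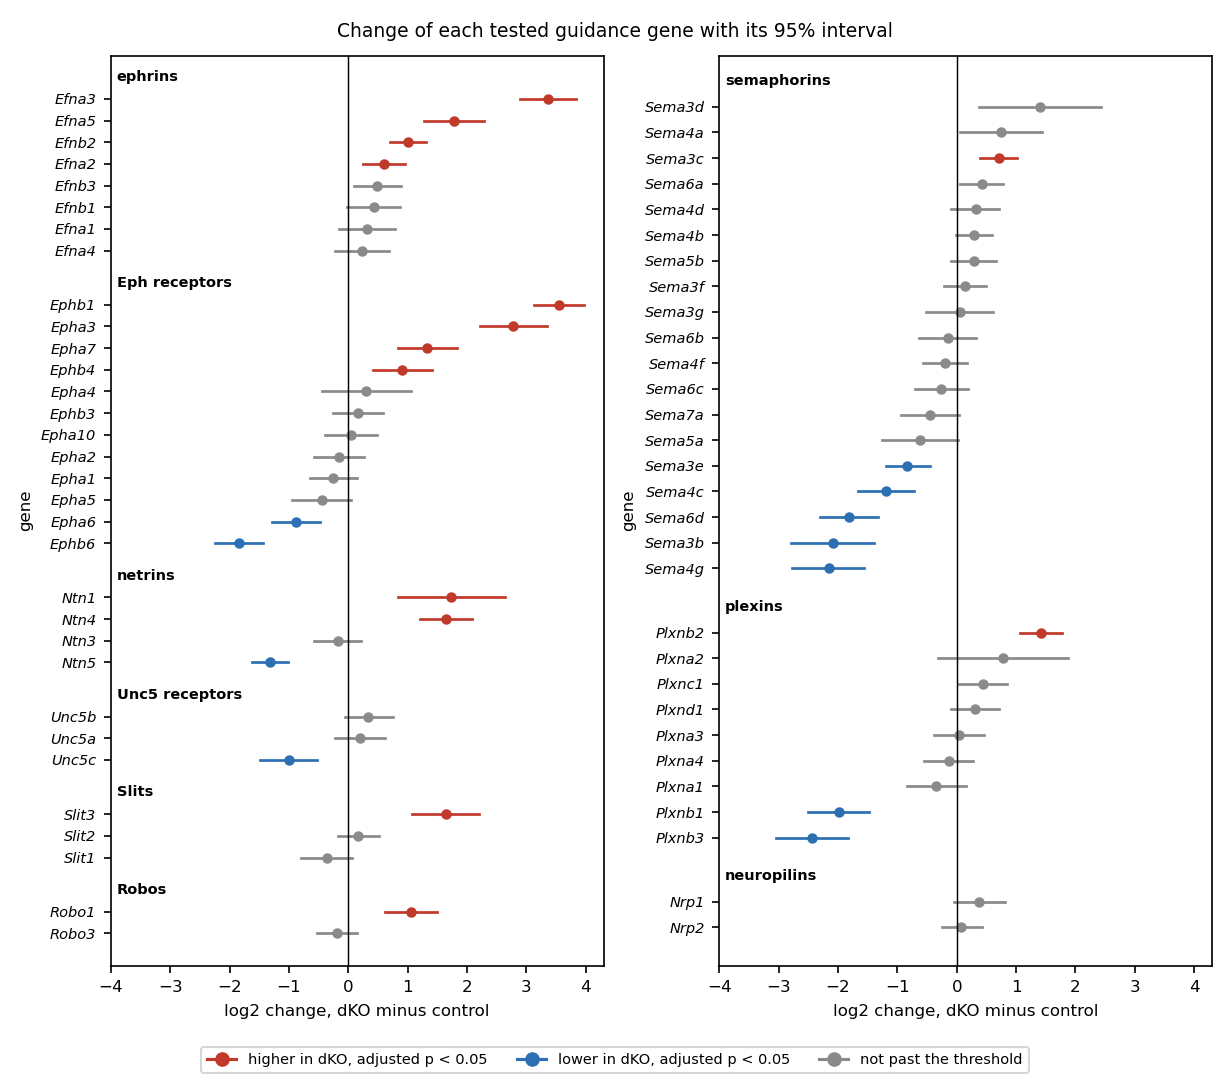
Change of each of the 62 tested guidance genes, dKO minus control on the log2 scale (horizontal axis), by family, with points for the estimate and bars for its 95% interval from the limma fit. Ephrin changes all lie above 0, from 0.23 to 3.37, whereas semaphorins and plexins hold called genes on both sides of 0.

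Ephrins were higher in dKO nerves where they were called. Of 8 ephrins tested, 4 (50%) were called higher and 0 lower, with a median change of 0.55, beside 12.6% of all genes called higher. Efna3 encodes ephrin-A3, a ligand of EphA receptors anchored to the membrane by a lipid. It was 7.13, 7.08 and 7.54 in dKO nerves, against 4.16, 3.95 and 3.53 in control nerves. The groups were far apart, and 2 of the 3 control values lay under the limit. With those values set to the limit, Efna3 was 9.16-fold higher in dKO (fitted change 3.37, SE 0.21, adjusted p = 8.4e-05). A second Efna3 probe set was also called higher, at 1.02 (SE 0.25), and averaging them gave 2.20. Efna5, which encodes the EphA ligand ephrin-A5, was 8.75, 8.75 and 8.28 in dKO nerves, against 6.41, 6.95 and 7.10 in control nerves. The lowest dKO value exceeded the highest control value, and the change was 1.78 (SE 0.22, adjusted p = 0.00109). Efnb2 encodes ephrin-B2, a transmembrane ligand of EphB receptors that also marks arterial endothelium. It was 8.75, 8.73 and 8.56 in dKO nerves, against 7.62, 7.68 and 7.74 in control nerves, a change of 1.01 (SE 0.13, adjusted p = 0.00143). Of its 4 probe sets 3 were called higher. The SD within groups was small here, 0.11 in dKO and 0.06 in control.

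Efna2, which encodes ephrin-A2, had the smallest of the called ephrin changes, 0.60 (SE 0.16, adjusted p = 0.0269). The call was lost under 7 of 12 alternative settings, including without dKO 2, dKO 3 or any of the 3 control arrays (adjusted p = 0.0522 to 0.0941). A second Efna2 probe set stood at 0.04 (SE 0.24), and averaging them gave 0.32 (adjusted p = 0.216). The other 4 ephrins had changes of 0.23 to 0.49 that did not pass the test. Efnb3 had a change of 0.49 (SE 0.17, adjusted p = 0.0811). Efnb1, an X-linked ligand of EphB receptors, was 8.71, 8.28 and 8.86 in dKO nerves and 8.19, 8.40 and 7.98 in control nerves, so the groups overlapped. Its change was 0.43 (95% interval -0.02 to 0.87, adjusted p = 0.16), and 0.41 with its 3 probe sets averaged, which passed (adjusted p = 0.0468).

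Of 12 Eph receptors tested, 4 were called higher and 2 lower, a share of 50% beside 22.0% of all genes tested. Ephb1, a receptor for B-class ephrins, had the largest fitted rise among the 62 tested guidance genes. It was 9.75, 9.77 and 9.88 in dKO nerves, against 6.52, 5.89 and 6.33 in control nerves. The dKO arrays lay within 0.13 of each other, and the fold was 11.7 (change 3.55, SE 0.18, adjusted p = 4.61e-05). Epha3, a receptor for A-class ephrins, was 5.74, 6.11 and 6.41 in dKO nerves, against 2.87, 3.67 and 3.38 in control nerves. All control values were under the limit, and the dKO mean was at least 4.25-fold higher. Because Epha3 passed the limit through the dKO arrays alone, its adjusted p of 0.000285 does not count as support. The other Epha3 probe set above the limit changed by 0.73 and was not called (adjusted p = 0.121), and the average over all its probe sets changed by 1.34. Epha7, another receptor of the A class, was 7.04, 7.32 and 7.18 in dKO nerves, against 5.38, 5.97 and 6.21 in control nerves. All 4 of its probe sets were called higher, by 1.15 to 1.69. Ephb4, the receptor of venous endothelium that binds ephrin-B2, was 7.75, 8.08 and 7.75 in dKO nerves, against 6.49, 7.21 and 7.14 in control nerves. Its change was 0.91 (SE 0.22, adjusted p = 0.0191), a call lost without dKO 2 (adjusted p = 0.0705).

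Ephb6, a member of the EphB class whose kinase domain is inactive, went the other way from Ephb1 and Ephb4. It was 4.81, 5.17 and 4.96 in dKO nerves, against 6.71, 7.10 and 6.65 in control nerves, and was 3.57-fold lower in dKO (change -1.84, SE 0.17, adjusted p = 0.000376). Epha6, of the EphA class, was 6.11, 5.98 and 5.57 in dKO nerves, against 6.87, 6.81 and 6.61 in control nerves (change -0.88, SE 0.18, adjusted p = 0.00932). The groups did not overlap for either gene. The other 6 Eph receptors tested had changes of -0.45 to 0.30 that did not pass the test, with 95% intervals that reached from -0.95 to 1.05. Among them Epha5 was 9.82, 9.31 and 9.12 in dKO nerves and 10.14, 9.65 and 9.81 in control nerves (change -0.45, SE 0.22, adjusted p = 0.181). Epha4, a receptor that binds ephrins of both classes, had a change of 0.30 (SE 0.33) and overlapping groups.

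**Figure D2:**
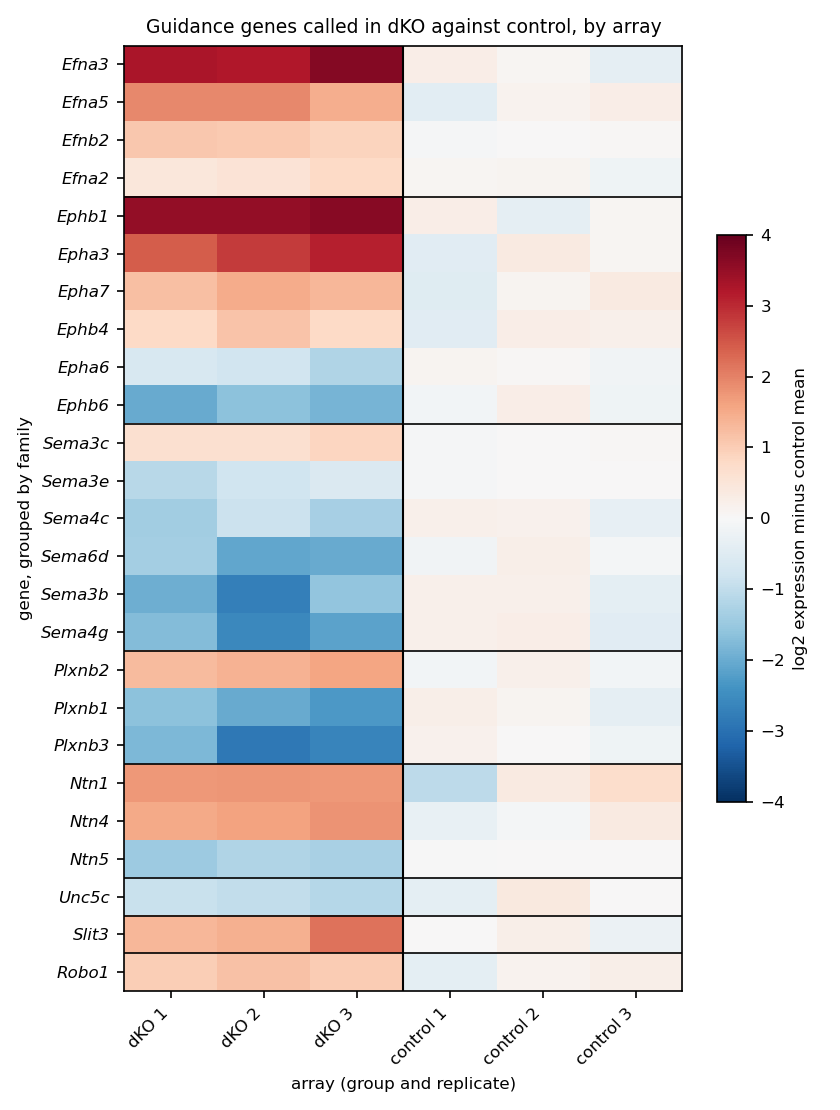
Log2 expression of the 25 called guidance genes on each array (columns, dKO arrays left of control arrays) minus the control mean of that gene, with red for higher and blue for lower. Each row has 1 sign across the 3 dKO arrays, and control 1 stands below the other controls for Ntn1.

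Semaphorins were mostly lower where they were called: of 19 tested, 5 were called lower and 1 higher. The share called was 31.6%, beside 22.0% of all genes tested, and 9 changes lay above 0 and 10 below. Over all genes tested, 9.38% were called lower and 12.6% higher. The genes called lower were Sema3b, Sema3e, Sema4c, Sema4g and Sema6d, and the gene called higher was Sema3c. The median change of the 19 was -0.15. Sema4g, a membrane-bound semaphorin of class 4, was 8.13, 7.29 and 7.74 in dKO nerves, against 10.08, 10.14 and 9.43 in control nerves. This was 4.48-fold lower in dKO (change -2.16, SE 0.26, adjusted p = 0.00101). Sema3b encodes a secreted ligand of neuropilin and plexin complexes. It was 9.26, 8.46 and 9.62 in dKO nerves, against 11.40, 11.40 and 10.82 in control nerves, with all 3 probe sets called lower, at changes of -2.41 to -1.77. The dKO arrays spread more (SD 0.60) than the control arrays (SD 0.33), and the groups stayed apart (adjusted p = 0.00209). Sema6d encodes a transmembrane ligand of A-class plexins. It was 10.24, 9.53 and 9.59 in dKO nerves, against 11.45, 11.82 and 11.53 in control nerves. All 4 Sema6d probe sets were called lower, and the one used here changed by -1.81 (SE 0.22, adjusted p = 0.000918). Sema4c, a class 4 ligand of plexin-B2, was 8.94, 9.46 and 8.98 in dKO nerves, against 10.51, 10.48 and 9.98 in control nerves (change -1.20, SE 0.21, adjusted p = 0.00489).

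Sema3e, the secreted ligand of plexin-D1, was 3.88, 4.18 and 4.39 in dKO nerves, against 4.93, 5.01 and 4.99 in control nerves. These values lie near the limit, and with the value of dKO 1 set to it Sema3e was 1.73-fold lower in dKO. The change fitted to the values as deposited was -0.83 (SE 0.16, adjusted p = 0.0085). Sema3c, a secreted class 3 ligand known from heart outflow and vessel development, was 9.67, 9.66 and 9.88 in dKO nerves, against 8.97, 9.02 and 9.08 in control nerves. Its change was 0.71 (SE 0.13, adjusted p = 0.00709), and both of its probe sets were called higher. The 13 semaphorins not called had changes of -0.62 to 1.40. Sema3d, of class 3, was 5.30, 5.47 and 6.31 in dKO nerves and 3.45, 4.16 and 5.28 in control nerves. Its control arrays ranged widely, and the change of 1.40 (SE 0.45) had an adjusted p of 0.0587. Without control 3 it was 1.89 (adjusted p = 0.00783). In the other fits without 1 array it was not called, with 0.98 without control 1 (adjusted p = 0.152) and 1.09 without dKO 3 (adjusted p = 0.162). The second probe set of Sema3d was called higher by 1.12. Averaging its probe sets gave 1.26, which passed (adjusted p = 0.0332). Sema3d also passed with an intensity trend in the fit (adjusted p = 0.0464) and with a replicate block (adjusted p = 0.0055). Sema5a, a ligand of plexin-B3, was 8.72, 8.21 and 7.82 in dKO nerves and 8.45, 8.88 and 9.29 in control nerves (change -0.62, 95% interval -1.26 to 0.02, adjusted p = 0.155). Sema6a and Sema6c were not called, but 1 of the 3 probe sets of each was, with changes of 0.76 for Sema6a and -0.75 for Sema6c.

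Of 9 plexins tested, 1 was called higher and 2 lower, a share of 33.3%, beside 22.0% of all genes tested. The 3 called were the plexins of class B, which went in opposite directions. They are the receptors of class 4 semaphorins and of Sema5a. Plxnb3, the receptor of Sema5a, was 7.58, 6.53 and 6.73 in dKO nerves, against 9.54, 9.38 and 9.22 in control nerves, a 5.39-fold lower level in dKO (change -2.43, SE 0.26, adjusted p = 0.000634). Plxnb1, the receptor of Sema4d, was 7.17, 6.79 and 6.49 in dKO nerves, against 9.03, 8.92 and 8.45 in control nerves (change -1.99, SE 0.22, adjusted p = 0.000727). Both probe sets of each gene were called lower. Plxnb2, the receptor of Sema4c, was 7.93, 8.08 and 8.26 in dKO nerves, against 6.58, 6.87 and 6.58 in control nerves. It was 2.67-fold higher in dKO (change 1.42, SE 0.16, adjusted p = 0.000685), on its only probe set. Of the ligands named, Sema4c was called lower, while Sema4d had a change of 0.32 (SE 0.18, adjusted p = 0.248) and Sema5a was not called. dKO 1 lay nearest to the control mean among the dKO arrays for all 3 plexins of class B.

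The promoters of the B plexins are printed because these paralogues were called in opposite directions. Each window covers 250 bases before to 50 after an annotated start in RefSeq (GRCm38.p6), 5′ to 3′ on the gene's strand. Capitals mark the core letters bound by SOX factors, ACAAAG or ACAATG, on either strand. None of the matches shown overlap. Motifs of SP1/KLF, EGR and REST factors and the TATA box were also counted and are not given here.
Plxnb3, chrX:73756853-73757152, plus strand: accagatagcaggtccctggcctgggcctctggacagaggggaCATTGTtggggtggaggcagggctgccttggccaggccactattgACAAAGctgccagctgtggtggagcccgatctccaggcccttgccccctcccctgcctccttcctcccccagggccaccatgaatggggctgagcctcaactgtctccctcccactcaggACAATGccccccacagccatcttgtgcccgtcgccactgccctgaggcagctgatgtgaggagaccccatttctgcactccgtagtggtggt
Plxnb1, chr9:109095186-109095485, plus strand: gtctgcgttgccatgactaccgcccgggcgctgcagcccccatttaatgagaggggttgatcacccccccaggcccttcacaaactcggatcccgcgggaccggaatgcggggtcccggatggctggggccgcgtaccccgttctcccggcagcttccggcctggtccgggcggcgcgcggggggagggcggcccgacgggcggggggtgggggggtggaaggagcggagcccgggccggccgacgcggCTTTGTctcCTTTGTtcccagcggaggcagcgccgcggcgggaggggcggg
Plxnb2, start with the lower coordinate, chr15:89173902-89174201, minus strand: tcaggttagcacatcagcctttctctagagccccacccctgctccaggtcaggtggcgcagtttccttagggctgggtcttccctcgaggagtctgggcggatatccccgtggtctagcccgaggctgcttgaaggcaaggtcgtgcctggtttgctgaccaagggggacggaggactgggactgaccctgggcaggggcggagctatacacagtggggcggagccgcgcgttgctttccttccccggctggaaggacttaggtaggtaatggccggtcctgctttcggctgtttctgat
Plxnb2, start with the higher coordinate, chr15:89180739-89181038, minus strand: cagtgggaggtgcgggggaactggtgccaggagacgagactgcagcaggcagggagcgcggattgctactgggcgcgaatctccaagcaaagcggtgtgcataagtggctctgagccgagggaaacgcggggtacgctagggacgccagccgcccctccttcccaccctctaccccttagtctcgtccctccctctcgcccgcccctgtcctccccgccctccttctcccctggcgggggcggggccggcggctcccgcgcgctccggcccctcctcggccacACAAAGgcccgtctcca
The Plxnb3 window held 3 matches, 1 of ACAAAG and 2 of ACAATG. The Plxnb1 window held 2, both of ACAAAG. Of the Plxnb2 windows the first held 0 and the second 1. Over 32851 windows of the same length in the table, 28.6% held at least 1 match, 5.59% at least 2 and 0.767% at least 3. The Plxnb3 window held 4 CpG dinucleotides and the Plxnb1 window 36, and the Plxnb2 windows 15 and 27, against a median of 7 over all windows. These matches describe the letters in the windows, and factor binding was not measured. Among the other genes called lower, the windows of Epha6, Ephb6, Sema3e, Sema4c, Sema4g, Ntn5 and Unc5c held 0 matches. Of the 2 Sema6d windows 1 held 1. Among the other genes called higher, the Efna2 window held 2, and those of Ephb1, Sema3c and Ntn4 held 1 each. The windows of Efna3, Efna5, Efnb2, Epha3, Epha7, Ephb4, Slit3 and Robo1 held 0. Whether matches go with direction was not tested. Promoters were found in the table for 23 of the 25 called genes and for 57 of the 66 guidance genes. Ntn5 and Plxnb3 had the fewest CpG dinucleotides in the windows of called genes (3 and 4).

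**Figure D3:**
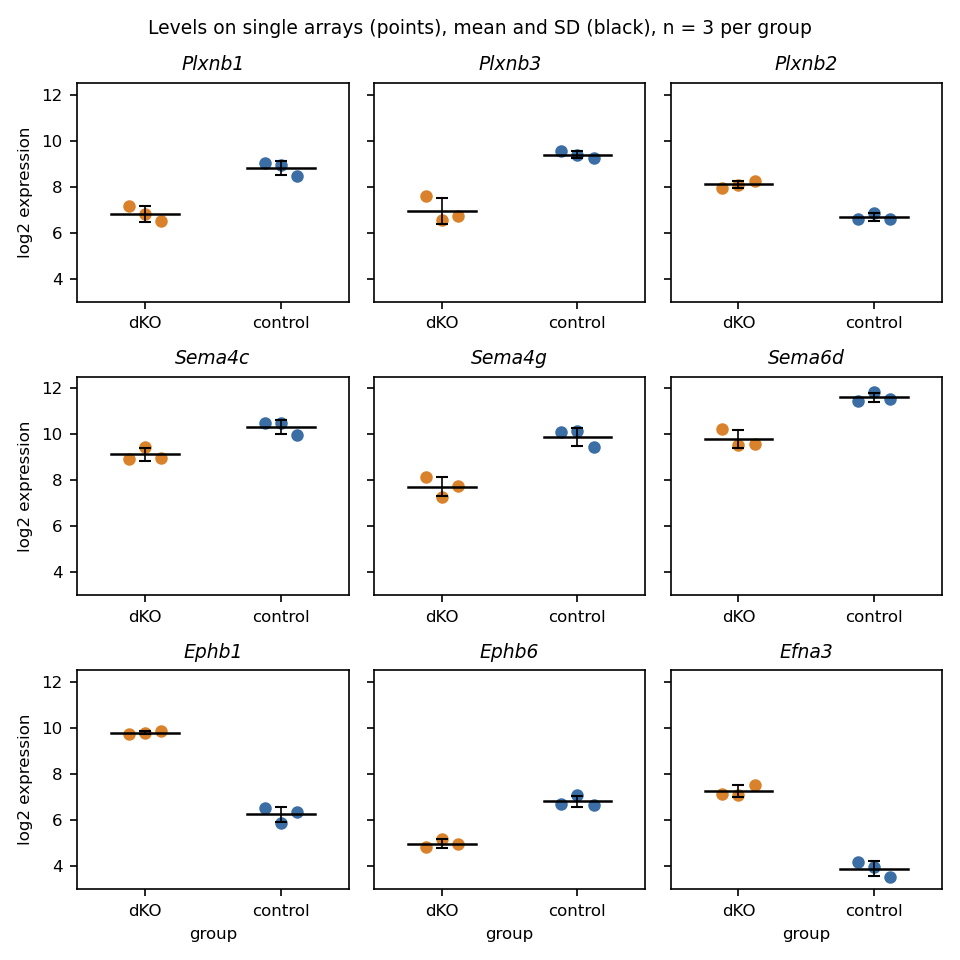
Log2 expression of 9 guidance genes on single arrays (points), with the group mean and SD in black (n = 3), dKO left of control. The dKO and control points do not overlap in any panel, with Plxnb1 and Plxnb3 lower and Plxnb2 higher in dKO.

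The remaining 6 tested plexins were not called, with changes of -0.35 to 0.78. Plxna1, a receptor of Sema6d, was 8.96, 8.60 and 9.27 in dKO nerves and 9.53, 9.35 and 8.97 in control nerves (change -0.35, SE 0.22, adjusted p = 0.301). Plxna2 was 6.30, 6.03 and 6.75 in dKO nerves and 6.84, 5.0 and 4.91 in control nerves. Control 1 lay above every dKO array for Plxna2, and without it the change was 1.41 (adjusted p = 0.00673), against 0.78 (adjusted p = 0.29) with all arrays. Without control 2 or control 3 it was 0.49 and 0.45 (adjusted p = 0.568 and 0.588). Of the other 3 Plxna2 probe sets, 1 was called higher, with a change of 0.86 (adjusted p = 0.041 over all probe sets). The neuropilins, co-receptors of class 3 semaphorins and of vascular endothelial growth factor, were not called either. Nrp2 was 10.87, 11.08 and 10.73 in dKO nerves and 10.74, 10.84 and 10.85 in control nerves, and its interval ran from -0.25 to 0.42. Nrp1 had a change of 0.38 (95% interval -0.05 to 0.81, adjusted p = 0.194).

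Of 4 netrins tested, 2 were called higher and 1 lower, a share of 75% of few genes, beside 22.0% of all genes tested. Ntn4 encodes a netrin that binds laminins in basement membranes. It was 6.53, 6.64 and 6.84 in dKO nerves, against 4.74, 4.95 and 5.39 in control nerves, a 3.13-fold higher level (change 1.65, SE 0.19, adjusted p = 0.00087). Ntn1, the classical netrin of the spinal cord floor plate, was 7.49, 7.54 and 7.50 in dKO nerves, against 4.72, 6.14 and 6.46 in control nerves. The dKO values lay close together (SD 0.03) and control 1 stood below the other controls (SD 0.93). Its change of 1.73 (SE 0.39, adjusted p = 0.0159) was 1.21 without control 1 (adjusted p = 0.00348), and the call was lost without dKO 2 (adjusted p = 0.0512). Of the probe sets of Ntn1 and Ntn4, the second of each was not called (changes 0.59 and 0.72). Ntn5, a less studied netrin, was 5.74, 5.99 and 5.91 in dKO nerves, against 7.17, 7.21 and 7.22 in control nerves. It was 2.49-fold lower in dKO (change -1.32, SE 0.13, adjusted p = 0.000506). Ntn3 was not called (change -0.18, SE 0.17).

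Among the receptors of netrins, Unc5c was called and Unc5a and Unc5b were not. Unc5c, which mediates repulsion by netrin-1, was 6.37, 6.26 and 6.13 in dKO nerves, against 6.86, 7.64 and 7.28 in control nerves, a 2.01-fold lower level in dKO without overlap (SE of the log2 change 0.21, adjusted p = 0.0104). Unc5b, a netrin receptor also known from endothelium, had a change of 0.34 (SE 0.18, adjusted p = 0.206). Neo1 encodes neogenin, a receptor of netrins and of repulsive guidance molecules. It was 10.69, 10.56 and 11.22 in dKO nerves, against 9.69, 9.48 and 9.42 in control nerves (change 1.29, SE 0.20, adjusted p = 0.00268). Its other probe sets changed by 1.32 and 1.14, called higher, and by 0.91 and 0.25, not called (adjusted p = 0.133 and 0.371 over all probe sets). The probe sets of Dcc, the attractive netrin receptor, disagreed. The one used had a change of 0.02 (SE 0.23, adjusted p = 0.967), and the other had a change of 2.07 and was called higher (adjusted p = 0.0015 over all probe sets).

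Slit3 and its receptor Robo1 were both called higher. Slit3 was 6.72, 6.82 and 7.57 in dKO nerves, against 5.42, 5.63 and 5.15 in control nerves, a 3.11-fold higher level (change 1.64, SE 0.25, adjusted p = 0.00248). Robo1 was 5.93, 6.12 and 5.96 in dKO nerves, against 4.56, 5.10 and 5.19 in control nerves (change 1.06, SE 0.19, adjusted p = 0.00566). The other 2 Robo1 probe sets were under the limit on all arrays, and with the 3 averaged the change was 0.49 (adjusted p = 0.0189). Slit2, a secreted Robo ligand, was 9.22, 9.18 and 9.11 in dKO nerves and 8.91, 9.24 and 8.84 in control nerves, with overlapping groups (change 0.17, SE 0.15, adjusted p = 0.465). Slit1 had a change of -0.36 (SE 0.19, adjusted p = 0.219) and Robo3 of -0.19 (SE 0.14, adjusted p = 0.396).

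Probe sets of the same gene were compared as a check within the array. Of the 25 called genes, 13 had more than 1 probe set above the limit. In 8 of these all such probe sets were called in the same direction, namely Efna3, Efna5, Epha7, Plxnb1, Plxnb3, Sema3b, Sema3c and Sema6d. In the other 5 at least 1 probe set was not called, and 0 of the 25 had probe sets called in both directions. The remaining 12 genes rest on 1 probe set above the limit, among them Ephb1, Ephb6, Plxnb2, Sema4g and Slit3.

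**Figure D4:**
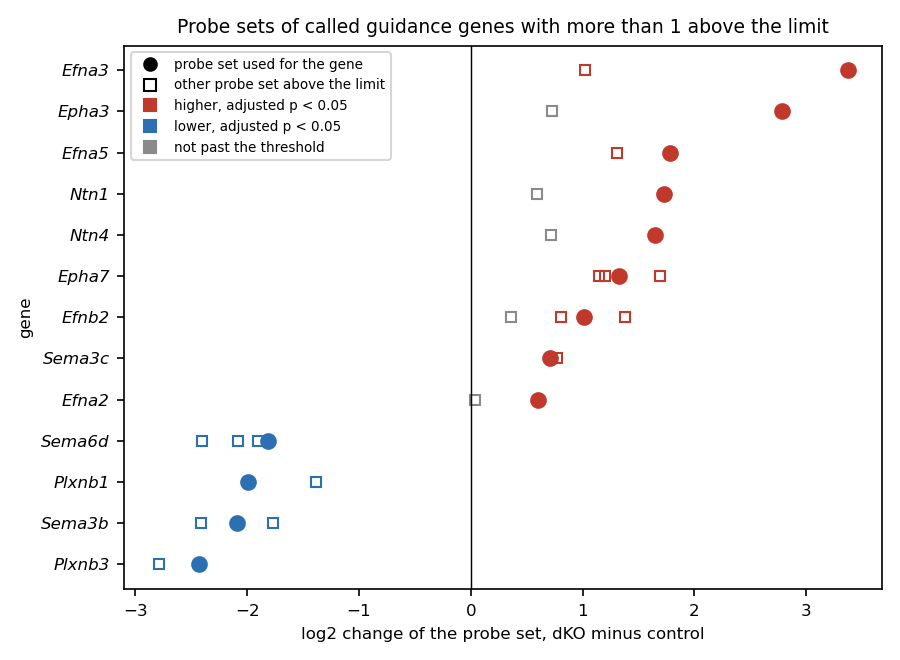
Log2 change of every probe set above the limit (horizontal axis, dKO minus control) for the 13 called genes with more than 1, filled circles for the probe set used and open squares for the others. All probe sets of a gene lie on the same side of 0, and those of Efna3 (1.02 and 3.37) and Epha3 (0.73 and 2.78) lie farthest apart.

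The dKO arrays differed in how far they lay from control. Over the 25 called genes, dKO 1 was nearest to the control mean for 15, dKO 2 for 5 and dKO 3 for 5. The median distance from the control mean was 1.38 for dKO 1, 1.47 for dKO 2 and 1.58 for dKO 3. The mean of the myelinating Schwann cell markers was also nearest to control in dKO 1, at 9.22, and farthest in dKO 2, at 7.64, and its part in the distances was not tested.

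Co-receptors and intracellular effectors of guidance signalling were also listed from general knowledge. Of 78 such genes, 74 were measured under their own name and 72 tested. Of these, 27 (37.5%) were called, 17 higher and 10 lower, beside 22.0% of all genes tested. Rgma, among those called higher, passed the limit through the dKO arrays alone, so it had to differ. The genes called lower include Tiam1, which encodes a Rac activator and whose probe sets disagreed. The one used had a change of -0.78, and the other 2 were called higher, at 0.91 (adjusted p = 0.0118 over all probe sets) and 1.0 (adjusted p = 0.0496). Some other called effectors also had probe sets that were not called. Limk1 was called at 1.35, with others at -0.13 and 0.26, and Dpysl4 at 1.19, with others at 0.04 and 0.33. Crmp1 and Dpysl3 encode collapsin response mediator proteins, which act in semaphorin signalling to the cytoskeleton. Crmp1 was 7.31, 7.99 and 7.55 in dKO nerves, against 3.98, 4.16 and 4.55 in control nerves. This was 10.4-fold higher in dKO, also with the control value under the limit set to it (change 3.38, SE 0.22, adjusted p = 0.000105). Dpysl3 was 10.82, 10.86 and 10.57 in dKO nerves, against 7.81, 8.35 and 8.38 in control nerves, with all 3 probe sets called higher. Pak3, a kinase activated by Rac and Cdc42, was 7.54, 8.01 and 7.46 in dKO nerves, against 5.18, 4.25 and 4.74 in control nerves. The actin regulator gene Enah rose by 1.88 (SE 0.18), and all 6 of its probe sets above the limit were called higher. Flrt2 and Flrt3 encode surface ligands of Unc5 receptors, and rose by 1.69 (SE 0.19) and 1.64 (SE 0.21).

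The largest called falls on the effector list were those of Chn2, Nrcam, Mical3, Nell2 and Srgap2. Chn2, which encodes a Rac GTPase-activating protein, was 5.72, 4.95 and 5.68 in dKO nerves, against 7.37, 8.05 and 7.57 in control nerves (change -2.21, SE 0.26, adjusted p = 0.000803). Nrcam, an adhesion molecule and co-receptor for class 3 semaphorins, was 9.52, 9.61 and 9.07 in dKO nerves, against 10.98, 11.15 and 11.33 in control nerves, and all 4 probe sets were called lower. Mical3, an actin-oxidising enzyme gene, fell by 1.56 (SE 0.24). Srgap2, which encodes a Slit-Robo GTPase-activating protein, fell by 1.28 (SE 0.21), with all 4 probe sets called lower. Nell2, which encodes a secreted ligand of Robo3, fell by 1.41 (SE 0.36, adjusted p = 0.0245), a call lost without any 1 of the control arrays (adjusted p up to 0.0777). Without control 2, 5 effector genes were called lower in place of 10.

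**Figure D5:**
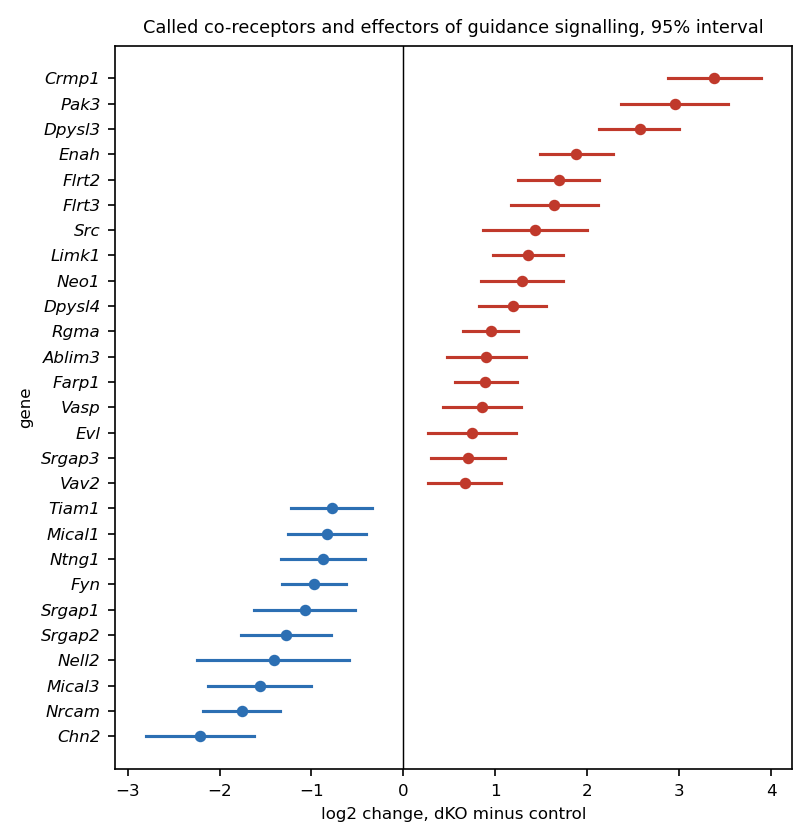
Log2 change (dKO minus control) with its 95% interval for the 27 called co-receptors and effectors. The 17 genes called higher reach 3.38 for Crmp1, and the 10 called lower reach -2.21 for Chn2.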

How the data were processed

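RNA of 6 nerve samples was hybridised to 1 array each. The authors deposited 1 log2 value per probe set and array, and the submitters' processing notes name GCOS 1.2 and GCRMA; the scale itself was inferred from the range of 1.66 to 14.94. Every array had a median of 5.77, and a shift shared by all genes could not be detected. Genes were named through the platform annotation, updated by gene ID with a RefSeq table (GRCm38.p6), and of 45101 probe sets 34958 had 1 symbol. Each gene is represented by its probe set with the highest mean over the 6 arrays, kept if at least 4 on 3 or more arrays. The groups were compared with limma 3.58.1 (lmFit, eBayes; R 4.3.3), two-sided, without covariates and with Benjamini-Hochberg adjustment over 14550 genes (single probe sets: over all probe sets). The fit was tested on simulated data. The number of arrays limits the precision, with a median SE of 0.17. Members, lists and motifs were chosen with earlier results of these data known, and marker and effector lists come from general knowledge. Named were all called members, in each family the member with the highest mean and the uncalled one with the largest change, and the 5 effectors with the largest called rise and fall. Epha4, Sema4a, Sema4b, Sema4d, Sema5a, Sema6a, Sema6c, Plxnc1, Unc5a, Neo1, Dcc, Flrt3, Tiam1, Rgma, Limk1 and Dpysl4 were named in addition after their values were seen. Promoter windows come from the same RefSeq build.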

Additional observations from a re-analysis of the deposited data

How the results depend on the processing

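The 25 called members were refitted under 12 alternatives each where they could be tested: low-value limits of 6 and none, averaged probe sets, arrays centred on their median, an intensity trend, a replicate block and 6 fits without 1 array. Of the 25, 22 kept direction and call in every alternative, and Efna2, Ephb4 and Ntn1 lost the call in some, as given above. With the limit of 6, 22 of 44 tested members were called (50%), beside 28.3% of all genes tested. With averaged probe sets 29 of 59 were called (49.2%), beside 24.8% of all genes. Without 1 array 22 to 25 of 63 were called (34.9 to 39.7%), beside 15 to 20% of all genes. No label says that the replicate numbers pair the samples. Deviations of same-numbered arrays correlated at 0.039, -0.122 and -0.235, which cannot settle it without a comparison to other pairs. With the replicate block 25 members were called, as without it (39.7% of 63, beside 17.6% of all genes with the block). Efna2 was then not called (adjusted p = 0.0772) and Sema3d passed (adjusted p = 0.0055). Over all genes 2557 were called with the block, against 3198. The median change of members was 0.17, and 0.29 with the limit of 6, 0.14 without a limit, 0.10 with centred arrays and 0.15 to 0.20 without 1 array; the limits change which genes are tested. Nrp2, not called, had a change of -0.04 with averaged probe sets and -0.01 without dKO 2 (-0.01 to 0.16 without 1 array). Without 1 array, 891 to 1331 genes were called lower over all genes, against 1365, and 5 to 10 effectors, against 10. The lowest count of each was without control 2, and the cause was not tested. Genes under the limit could not be compared at the signal of these arrays.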
